A study of Homo sapiens with 2 samples.

Results

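Glycolysis and gluconeogenesis were examined through 32 genes, which encode glucose and lactate transporters, glycolytic enzymes and gluconeogenic enzymes. The genes were taken by symbol from the table of 61541 human genes, and each of the 32 symbols matched 1 row. Reads were found on 26379 genes, and all 32 of the genes examined were among them. The cell line, Huh7, comes from a human hepatocellular carcinoma. RNA was sequenced from Huh7 cells given a control siRNA (Huh7-NC, labelled si-NC) and from Huh7 cells given an siRNA against BRF2 (Huh7-si, labelled si-BRF2), with 1 library in each group. The same cell line served for both groups, and the siRNA sequence used for sequencing is not given in the sources used here. The cells were grown in high-glucose medium with fetal bovine serum. No difference below has a replicate check, so each comparison is between 2 libraries and not between the conditions.

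Glycolysis splits glucose into pyruvate in the cytosol and yields ATP, and lactate dehydrogenase turns pyruvate into lactate with recovery of NAD+. Flux is controlled at glucose uptake, at hexokinase, at phosphofructokinase and at pyruvate kinase. Gluconeogenesis runs the pathway backwards, with separate enzymes at the irreversible steps, and in the body it is chiefly a task of the liver. Several steps have isozymes, and hepatoma cells typically use hexokinase 2, aldolase A and pyruvate kinase M2, where hepatocytes use the liver form of pyruvate kinase.

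Every gene has estimated reads and TPM, an abundance per length and per library. CPM is the share of the library's reads on genes that a gene took, scaled to 1000000. The libraries held 22852648 reads (Huh7-NC) and 22089016 reads (Huh7-si) on genes, and a count of 0 allows up to 3 reads, or 0.131 and 0.136 CPM. The log2 fold change (log2FC) is the log2 of the ratio of CPM in Huh7-si to that in Huh7-NC, with a 95% exact Clopper-Pearson interval that covers counting error only. A gene was called, and is said to have risen or fallen, where CPM differed at least 2-fold and a two-sided exact binomial test, comparing both libraries' reads, gave p under 0.05 without adjustment. The target, BRF2, went from 1281 reads in the control library to 364 in the knockdown library, a log2FC of -1.77. All 13 hepatocyte and hepatoma markers examined, albumin among them, had at least 10 reads in total, with a summed level of 20759 and 21448 CPM. Of these 6 lay above 0 in log2FC and 7 below, with a median of -0.04. APOB alone was called higher, and APOA1 was farthest below 0, at -0.83 (15460 and 8417 reads). The 12 markers of other liver cells summed to 91.9 and 143 CPM, and 7 of them had at least 10 reads in total. From that list COL1A2 (737 and 1687 reads, 32.3 and 76.4 CPM) and COL3A1 (19 and 44 reads) were called higher, beside 10.4% of all genes. APOB (14121 bases), COL1A2 (5072 bases) and COL3A1 (5490 bases) are long, and log2FC rose with gene length in these libraries, as given below. Their log2FC values were 1.04, 1.24 and 1.26. Less the median of protein-coding genes of like length, also described below, they stood at 0.34, 0.89 and 0.82. The part of these genes in the values below was not tested. In bulk RNA, fewer cells of a type and less RNA per cell cannot be told apart.

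By share of the reads, the bulk of the glycolytic mRNA was lower in Huh7-si, while SLC2A1 and the 3 PFKFB genes with at least 10 reads were higher. The median log2FC over all genes with at least 10 reads was itself 0.21. With TMM, another scaling of the libraries, SLC2A1 stood at 0.17 and PFKFB3 at 0.07. Together the 32 genes took 1.70% of the reads in Huh7-NC (95% interval 1.69 to 1.70) and 1.29% in Huh7-si (1.29 to 1.30). On the TPM scale they summed to 14671 and 12319 TPM, a difference of -16.0%. Most of that mass came from the enzymes of the lower pathway, which summed to 10244 TPM in Huh7-NC and 8388 TPM in Huh7-si. The upper pathway from phosphoglucose isomerase to triose phosphate isomerase summed to 3281 and 2744 TPM. The 4 PFKFB genes together had 55.3 and 86.2 TPM, and their share of the reads was 26.5% higher in Huh7-si. The 5 transporters, mostly SLC16A3, summed to 255 and 333 TPM, while their share of the reads was 7.34% higher. On the log2 scale the TPM of the transporters differed by 0.38, beside a median of 0.39 over all genes.

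**Figure D1:**
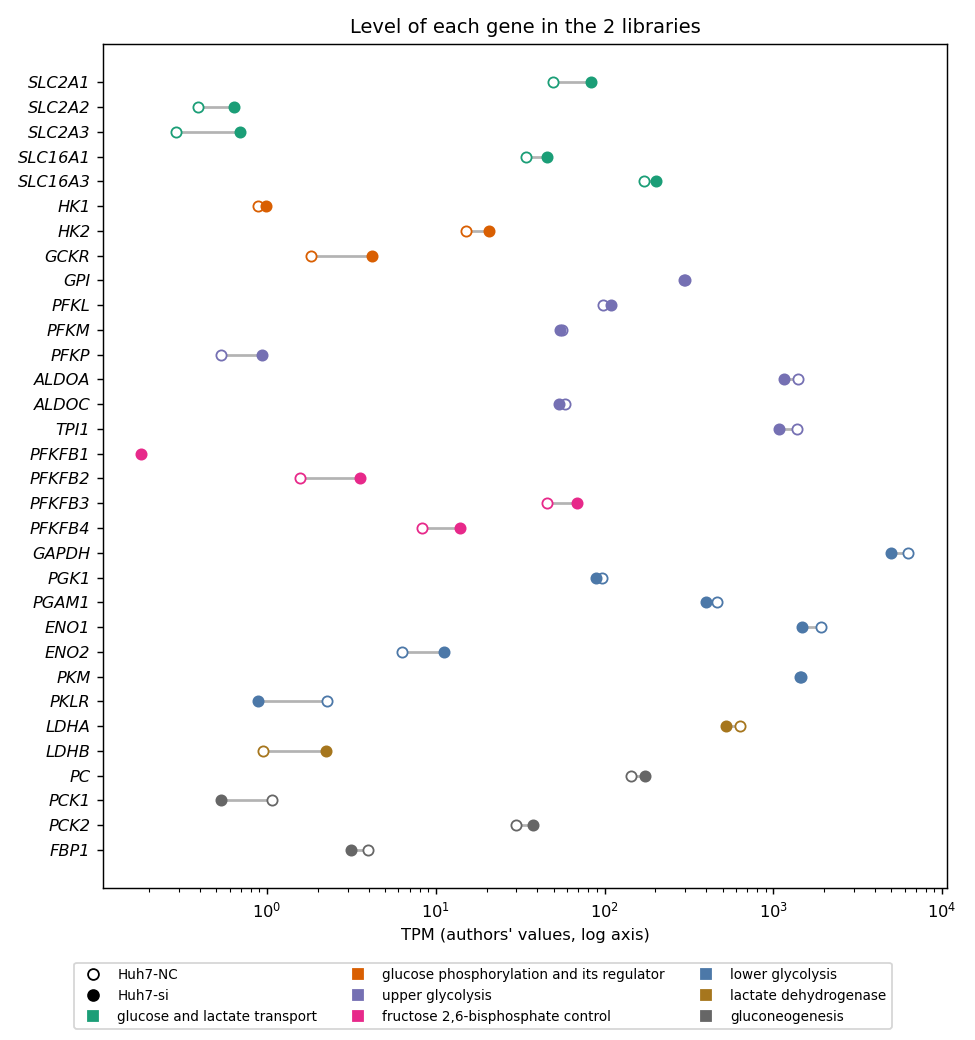
TPM of each of the 32 genes (log axis) in Huh7-NC (open circles) and Huh7-si (filled circles), 1 library each, coloured by role. GAPDH was the most abundant at 6316 and 4956 TPM, and PFKFB1 is listed at 0 in Huh7-NC, so only its filled circle is drawn.

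Few of these genes passed the thresholds. PFKFB2, PFKP and LDHB rose, which is 3 of 32 genes, where 10.4% of all 26379 genes were called higher. PKLR fell, which is 1 of 32, where 1.02% of all genes were called lower. At a fold of 1.5 the count was 4 higher, with ENO2 added, against 17.6% of all genes, and 2 lower, with FBP1 added, against 2.87%. These shares are near the background or rest on 1 or 2 genes. Because log2FC moved with gene length in these libraries, genes are also set beside the median of protein-coding genes in the same of 20 length bins, called genes of like length. The deeply sequenced genes give a finer view. Of the 20 genes with at least 1000 reads in total, 12 (60.0%) had an interval wholly below 0, where 35.8% of all 7454 such genes did. Another 6 had an interval wholly above 0, where 44.5% of all such genes did. The median log2FC was -0.03 over the 31 genes with at least 10 reads in total and 0.21 over all 17921 such genes of the table. Over the 20 deeply sequenced genes it was -0.25, and over the 7291 protein-coding genes of that depth it was 0.05.

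**Figure D2:**
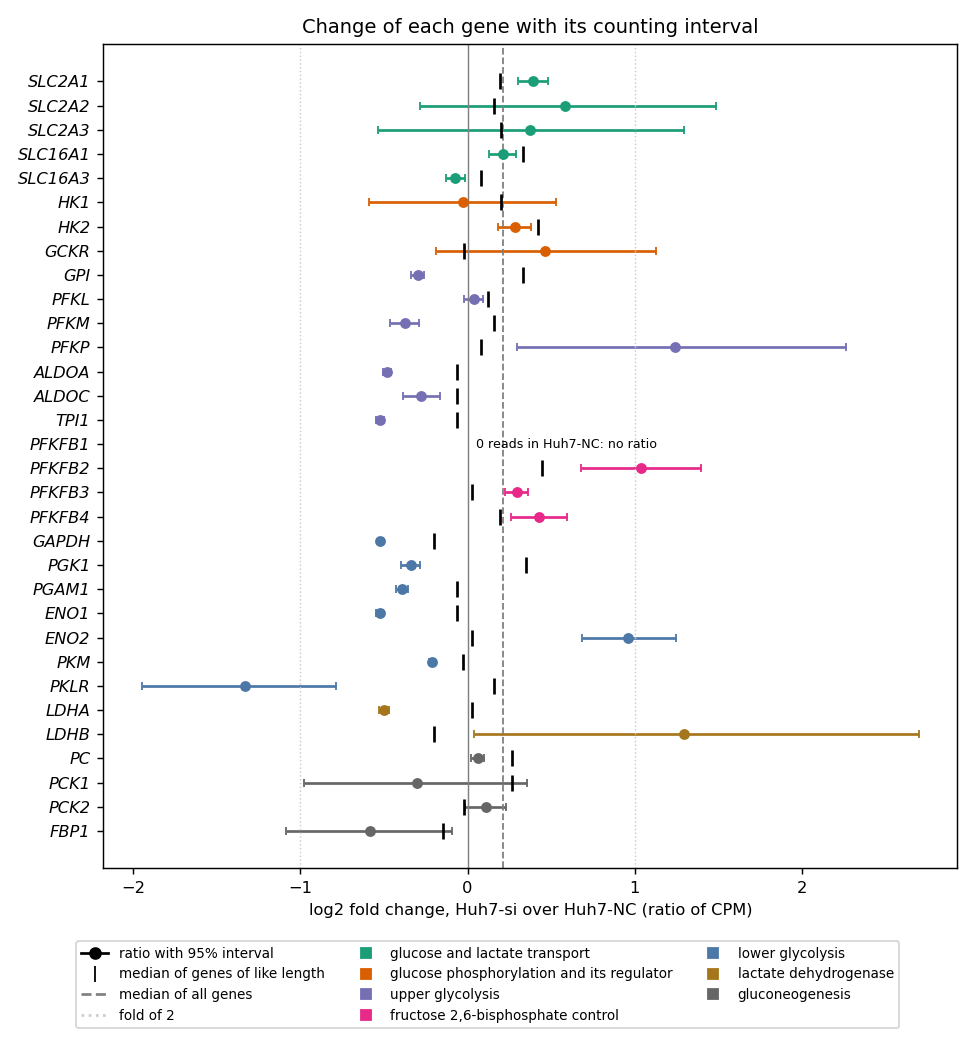
Log2 fold change of each gene, Huh7-si over Huh7-NC, with its 95% counting interval; black ticks mark the median of protein-coding genes of like length and the dashed line the median of all genes, 0.21. Most of the abundant enzymes from GPI to LDHA sit left of 0 with short bars, PFKL excepted at 0.04, and the PFKFB genes, ENO2 and SLC2A1 sit right of it.

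Glucose entry was examined first. SLC2A1 encodes GLUT1, the widely expressed glucose transporter of tumor cells. It went from 1732 reads (Huh7-NC) to 2195 (Huh7-si), or 49.2 and 82.9 TPM. The log2FC was 0.39 (0.30 to 0.48), higher in Huh7-si beyond counting error but short of the fold threshold. The median of genes of like length was 0.19, and with TMM scaling SLC2A1 stood at 0.17. SLC2A2 encodes GLUT2, the hepatocyte transporter, and SLC2A3 encodes the high-affinity transporter GLUT3. Both were near the limit of detection, with 20 and 29 reads for SLC2A2 and 20.2 and 25.3 reads for SLC2A3, and the intervals of both include 0. Among the 3 glucose transporter genes counted here, SLC2A1 thus accounted for 97.7% of the reads in Huh7-NC and for 97.6% in Huh7-si. SLC2A8, a transporter gene left out of this share, had 2109 and 2088 reads (79.1 and 109 TPM). By TPM it was above SLC2A1 in both libraries. The share of SLC2A1 among all glucose transporter genes was not tested.

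HK2, the hexokinase typical of tumors, had 1570 and 1846 reads (15.2 and 20.7 TPM). Its log2FC of 0.28 (0.18 to 0.38) lies above 0, but the median of genes of like length was 0.42. HK1 had 58 and 55 reads and a log2FC of -0.03 (-0.59 to 0.53), a difference not detectable at this depth. GCKR, a regulatory protein of hepatic glucose metabolism, had 36 and 48 reads, with an interval that includes 0.

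The next steps are catalyzed by phosphoglucose isomerase (GPI), phosphofructokinase, aldolase and triose phosphate isomerase (TPI1). GPI went from 11412 to 8975 reads, a log2FC of -0.30 (-0.34 to -0.26). Phosphofructokinase, which commits glucose to glycolysis, is built from liver (PFKL), muscle (PFKM) and platelet (PFKP) subunits. PFKL had 4944 and 4906 reads and 97.7 and 110 TPM, with a log2FC of 0.04 (-0.02 to 0.10), and its direction depends on the scaling. PFKM was lower, with 2534 and 1887 reads and a log2FC of -0.38 (-0.46 to -0.29). PFKP rose from 14 to 32 reads, a log2FC of 1.24 (0.29 to 2.26, p = 0.00729 from the exact binomial test), and was still the rarest subunit at 0.93 TPM. It stood under the fold threshold by TPM (0.81), with a pseudocount of 1 CPM (0.60) and less genes of like length and level (0.79).

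The subunit makeup of phosphofructokinase mRNA therefore differed between the libraries. PFKL took 66.0% of the reads of the 3 genes in Huh7-NC (64.9 to 67.1) and 71.9% in Huh7-si (70.8 to 72.9), a shift of 5.89 percentage points (p = 2.8e-14, two-sided Fisher's exact test on the reads of the 2 libraries). PFKM went from 33.8% to 27.6%. A share within a family does not depend on how the libraries are scaled. It can still depend on length. The listed lengths of PFKL (2907 bases) and PFKM (3167 bases) are close, but reads and TPM moved the 2 genes by unlike amounts. The log2 ratio of PFKL was 0.04 by reads and 0.17 by TPM, and that of PFKM was -0.38 and -0.03. The part of length in the shift was not tested. By TPM the share of PFKL was 63.4% and 66.4%, a smaller shift of 2.98 points.

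ALDOA, the aldolase of muscle and tumors, had 31217 and 21610 reads (1392 and 1153 TPM), a log2FC of -0.48 (-0.51 to -0.46). TPI1 had 29594 and 19908 reads (1378 and 1078 TPM) and -0.52 (-0.55 to -0.50). ALDOC, the brain type aldolase, had 1531 and 1222 reads and -0.28 (-0.39 to -0.17). All 3 were lower in Huh7-si and lower than genes of like length, whose median was -0.06. ALDOA made up 95.3% and 94.6% of aldolase reads over these 2 genes.

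The PFKFB genes encode bifunctional enzymes that make and break fructose 2,6-bisphosphate, the strongest allosteric activator of phosphofructokinase. All 3 with at least 10 reads were higher in Huh7-si. PFKFB3, the form with the highest kinase activity, had 3204 and 3797 reads (45.5 and 68.6 TPM), a log2FC of 0.29 (0.23 to 0.36). PFKFB4 had 520 and 677 reads and 0.43 (0.26 to 0.60). With TMM scaling PFKFB3 stood at 0.07 and PFKFB4 at 0.20, and the medians of genes of like length were 0.03 and 0.19. PFKFB2, the heart form, rose from 100 to 198 reads (1.56 and 3.54 TPM), a log2FC of 1.03 (0.68 to 1.40, p = 2.4e-09 from the exact binomial test). Its interval includes values under the threshold of 1, with TMM scaling it stood at 0.81 and was not called, and it is a long gene of 7073 bases, for which the median of like length was 0.45. PFKFB1, the liver form, had 0 reads in Huh7-NC, which allows up to 3, and 4 in Huh7-si. PFKFB3 held 83.8% of the reads of the family in Huh7-NC (82.6 to 84.9) and 81.2% in Huh7-si (80.1 to 82.3).

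The lower pathway, from glyceraldehyde phosphate to pyruvate, held the most abundant genes. GAPDH, a common reference gene in expression work, had 127796 and 86103 reads (6316 and 4956 TPM). Its log2FC was -0.52 (-0.53 to -0.51), a change of -30.3% in its share of the reads. The median of genes of like length was -0.20, and less that median GAPDH stood at -0.32. Less genes of like length and level it stood at -0.20. ACTB, another reference gene, had a log2FC of -0.18, and the log2 difference of GAPDH less ACTB was -0.34. ENO1 had 54886 and 36852 reads (1912 and 1486 TPM) and a log2FC of -0.53 (-0.54 to -0.51), and PGAM1 had 14068 and 10379 reads and -0.39 (-0.43 to -0.35). PGK1, the first ATP-yielding step, had 5599 and 4279 reads (95.9 and 88.6 TPM) and -0.34 (-0.40 to -0.28). At 4812 bases PGK1 is long, the median of genes of like length was 0.35, and less that median PGK1 stood at -0.69. Of the 20 deeply sequenced genes it was farthest from its length class, followed by GPI at -0.63.

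ENO2 stood against this pattern. It encodes the neuronal enolase and went from 163 reads (Huh7-NC) to 307 (Huh7-si) (6.27 and 11.2 TPM), a log2FC of 0.96 (0.68 to 1.25). This is just under the fold threshold, and the median of genes of like length was 0.03. Of the reads of ENO1 and ENO2, ENO2 made up 0.296% in Huh7-NC (0.252 to 0.345) and 0.826% in Huh7-si (0.737 to 0.924). The share of ENO1 in this pair differed with p = 7.4e-28 (two-sided Fisher's exact test on the reads of the 2 libraries). ENO3, an enolase gene outside the 32, had 1528 and 1785 reads, more than ENO2, and was left out of these shares.

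Hypoxia-inducible factor (HIF) drives many glycolytic genes through sites with the core ACGTG, and promoters on both sides of the comparison were read for it. The sequences are the 250 bases before the annotated start in RefSeq (GRCh38.p14), written 5′ to 3′ on the strand of the gene, with ACGTG or its complement CACGT in capitals. They were picked after their values were seen, to show both directions and not the balance: of the 15 genes with the core 10 were below 0 and 5 above. By reads HK2 and ENO2 were higher in Huh7-si and PGK1 was lower, and HK2 turned to -0.14 less genes of like length. The HK2 window is chr2:74834920-74835169 (plus strand, one of 2 starts listed), that of ENO2 is chr12:6914330-6914579 (plus strand) and that of PGK1 is chrX:78103998-78104247 (plus strand).
HK2: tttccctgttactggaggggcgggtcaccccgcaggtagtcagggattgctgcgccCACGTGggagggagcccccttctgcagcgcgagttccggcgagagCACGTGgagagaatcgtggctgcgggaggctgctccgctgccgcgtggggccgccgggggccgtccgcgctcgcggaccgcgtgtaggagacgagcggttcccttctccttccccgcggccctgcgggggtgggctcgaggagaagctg
ENO2: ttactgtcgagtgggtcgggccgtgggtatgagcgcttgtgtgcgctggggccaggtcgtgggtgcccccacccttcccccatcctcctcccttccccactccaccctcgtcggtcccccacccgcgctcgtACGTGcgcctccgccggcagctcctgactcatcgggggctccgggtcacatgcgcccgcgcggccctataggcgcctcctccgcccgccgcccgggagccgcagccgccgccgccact
PGK1: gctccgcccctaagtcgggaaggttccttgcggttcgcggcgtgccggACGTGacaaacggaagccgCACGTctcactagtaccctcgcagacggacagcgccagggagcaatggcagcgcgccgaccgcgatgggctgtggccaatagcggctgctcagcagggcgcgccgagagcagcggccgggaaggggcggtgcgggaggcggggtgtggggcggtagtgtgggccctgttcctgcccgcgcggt
HK2 holds 2 sites, each the palindrome CACGTG and thus matched on both strands, 194 and 149 bases before the start where the palindrome begins. ENO2 holds 1 match 118 bases before the start, and PGK1 holds 2, at 202 and 183 bases. ACGTG was found on either strand in 21.4% of all 35116 RefSeq windows of 300 bases (250 before to 50 after a start). It was found in 19 of the 57 windows (33.3%) of the 28 genes matched by symbol, and in at least 1 window of 15 of these genes. The longer E-box CACGTG, which contains the core, was in 7.26% of all windows and in 7 of the 57. PCK1, PFKFB2, SLC16A1 and SLC2A3 had no entry.

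Pyruvate kinase makes pyruvate and the last ATP of the pathway. PKM, the gene of the M1 and M2 forms, had 56078 and 46707 reads, a log2FC of -0.21 (-0.23 to -0.20). By TPM its level was 1451 and 1446, nearly equal in the 2 libraries. On that scale the median log2 ratio over all genes was 0.39, where it was 0.21 by reads, so PKM lay under the median on both. The table holds no separate values for M1 and M2. PKLR, the gene of the liver and red cell forms, was the single member of the 32 that fell. It went from 94.6 reads (Huh7-NC) to 36.4 (Huh7-si) (2.27 and 0.88 TPM), a log2FC of -1.33 (-1.95 to -0.78, p = 6.7e-07 from the exact binomial test). The median of genes of like length was 0.16, and PKLR stayed past -1 under the scalings tried and by TPM. It was not called with a pseudocount of 1 CPM (-0.96) or with the exact test of edgeR at a coefficient of variation of 0.4. Of the pyruvate kinase reads PKM supplied 99.8% in the control library and 99.9% in the other.

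The liver start of PKLR is known for its carbohydrate response element, which binds ChREBP, the glucose-sensing factor encoded by MLXIPL, together with its partner MLX. The element was searched as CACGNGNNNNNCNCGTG, which reads the same on both strands. The window below is the 250 bases before the downstream of the 2 PKLR starts in RefSeq, chr1:155300953-155301202 of GRCh38.p14, minus strand, written 5′ to 3′ on the strand of the gene, with the match in capitals.
PKLR: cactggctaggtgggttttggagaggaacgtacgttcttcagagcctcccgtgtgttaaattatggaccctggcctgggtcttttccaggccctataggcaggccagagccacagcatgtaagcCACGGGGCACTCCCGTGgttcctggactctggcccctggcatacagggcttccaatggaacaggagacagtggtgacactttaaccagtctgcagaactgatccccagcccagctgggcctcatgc
The match begins 126 bases before the start. Among all 35116 RefSeq windows 8 hold a match, or 0.0228%, and of the 57 windows of these genes only this one does. MLXIPL, chosen here after its values were seen, had 393 and 674 reads, a log2FC of 0.83 (0.65 to 1.01), and was thus higher in the library in which PKLR was lower.

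Lactate production and export closed the pathway. LDHA, which favors lactate, had 21250 and 14524 reads (638 and 524 TPM), a log2FC of -0.50 (-0.53 to -0.47). LDHB rose from 8 to 19 reads, a log2FC of 1.30 (0.04 to 2.70, p = 0.0333 from the exact binomial test), and its interval reaches almost to 0. With TMM scaling LDHB no longer passed the test. LDHA supplied 99.96% and 99.9% of the reads of this pair, so LDHB was close to absent in both libraries. The monocarboxylate transporters carry lactate across the membrane. SLC16A1 (MCT1) had 2370 and 2653 reads and a log2FC of 0.21 (0.13 to 0.29). SLC16A3 (MCT4, the export form of glycolytic cells) had 5126 and 4713 reads and -0.07 (-0.13 to -0.01). By TPM SLC16A3 was higher instead, at 171 and 203 TPM, a log2 ratio of 0.25 beside a median of 0.39 over all genes. Of the reads of this pair SLC16A3 held 68.4% in Huh7-NC (67.3 to 69.4) and 64.0% in Huh7-si (62.9 to 65.1), a shift of -4.40 percentage points (p = 1.6e-08, two-sided Fisher's exact test on the reads of the 2 libraries). SLC16A1 (4374 bases) is the longer of the pair (2662 bases for SLC16A3), and by TPM the share of SLC16A3 was 83.3% and 81.7%, a shift of -1.52 points.

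**Figure D3:**
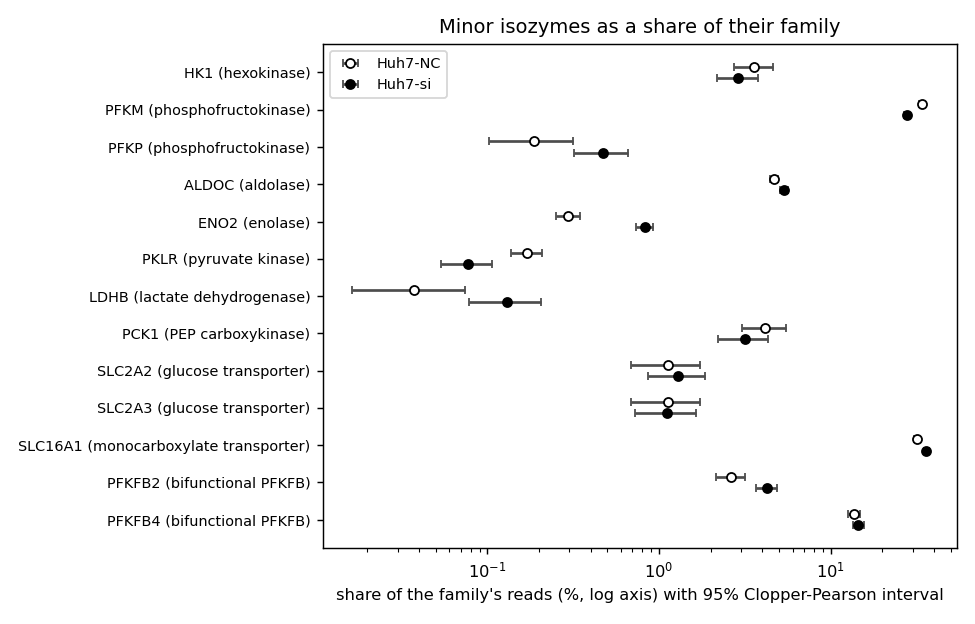
Share of each minor isozyme in the reads of its family (log axis, percent) in Huh7-NC (open) and Huh7-si (filled), with 95% Clopper-Pearson intervals. A family counts only its genes among the 32. PFKFB1, at 0 reads in Huh7-NC, is left out. The intervals of PFKM, PFKP, ALDOC, ENO2, PKLR, LDHB, SLC16A1 and PFKFB2 do not overlap between the libraries, while those of HK1, PCK1, SLC2A2, SLC2A3 and PFKFB4 do.

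The 10 isozyme families compared hold only genes among the 32, so isozymes such as ENO3, HKDC1 and SLC2A8 are outside them. In these families the share of the leading member differed in 7 at an unadjusted p under 0.05 from Fisher's exact test. At this depth small differences pass, since 44.5% of all genes with at least 1000 reads had an interval above 0 and 35.8% below, so the count says little about isozymes as such. The hexokinases, the PEP carboxykinases and the glucose transporters did not pass. Of the reads of HK1 and HK2 alone, HK2 held 96.4% in Huh7-NC (95.4 to 97.3) and 97.1% in Huh7-si (96.3 to 97.8). HKDC1, a hexokinase gene outside the 32, had more reads than HK1 in both libraries and was left out of these shares. The share of HK2 among all hexokinase genes, and its direction, was not tested. Among the genes counted, the leading member was the same in both libraries in each family. This rests on the genes chosen: SLC2A8 had more reads than SLC2A1 in Huh7-NC (2109 and 1732) and fewer in Huh7-si (2088 and 2195). Shifts were small where 1 member supplied nearly all reads, and by reads those of phosphofructokinase and the monocarboxylate transporters shifted most of the 10 families. By TPM the order was phosphofructokinase (2.98 points), PFKFB (-2.58), PEP carboxykinase (2.09) and the monocarboxylate transporters (-1.52).

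The 4 gluconeogenic genes differed in direction among themselves. Pyruvate carboxylase (PC) makes oxaloacetate from pyruvate in mitochondria. It had 10404 and 10487 reads (143 and 174 TPM) and a log2FC of 0.06 (0.02 to 0.10), and its sign depends on the scaling. PEP carboxykinase turns oxaloacetate into phosphoenolpyruvate. Its mitochondrial form PCK2 had 1062 and 1107 reads (29.7 and 37.6 TPM), a log2FC of 0.11 (-0.01 to 0.23). The cytosolic form PCK1, which glucagon and fasting induce in liver, had 46 and 36 reads and -0.30 (-0.98 to 0.36), a difference not detectable at this depth. FBP1, the fructose bisphosphatase that opposes phosphofructokinase, had 90.0 and 58.0 reads (3.96 and 3.14 TPM) and -0.59 (-1.09 to -0.09), with p = 0.0169 from the exact binomial test. None of the 4 passed the fold threshold of 2. PCK2 held 95.8% and 96.9% of the PEP carboxykinase reads.

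Gene length moved with change in these libraries. Across the 14088 protein-coding genes with at least 10 reads, Spearman's rho between length and log2FC was 0.46, and across the 31 glycolytic and gluconeogenic genes it was 0.30. Genes share their libraries and are not independent replicates. The median log2FC was -0.36 in the bin of the shortest genes (180 to 854 bases) and 0.69 in that of the longest (8940 to 109224 bases). Many glycolytic enzymes are short, and the 7 lower-pathway genes had a median length of 2004 bases. With the median at like length taken off, the median over the 31 genes was -0.19, with -0.42 for the upper pathway, -0.33 for the lower pathway and 0.26 for the 3 PFKFB genes. Within the 31 genes rho between level, as CPM, and log2FC was -0.58. Level moved with change outside these genes too. The median log2FC was 0.15 over the 14088 protein-coding genes and 0.05 over those with at least 1000 reads. With the median of genes of like length and like level taken off, an alternative added after the data were seen, the 31 genes had a median of -0.07, the upper pathway -0.24, the lower pathway -0.20 and the PFKFB genes 0.42.

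**Figure D4:**
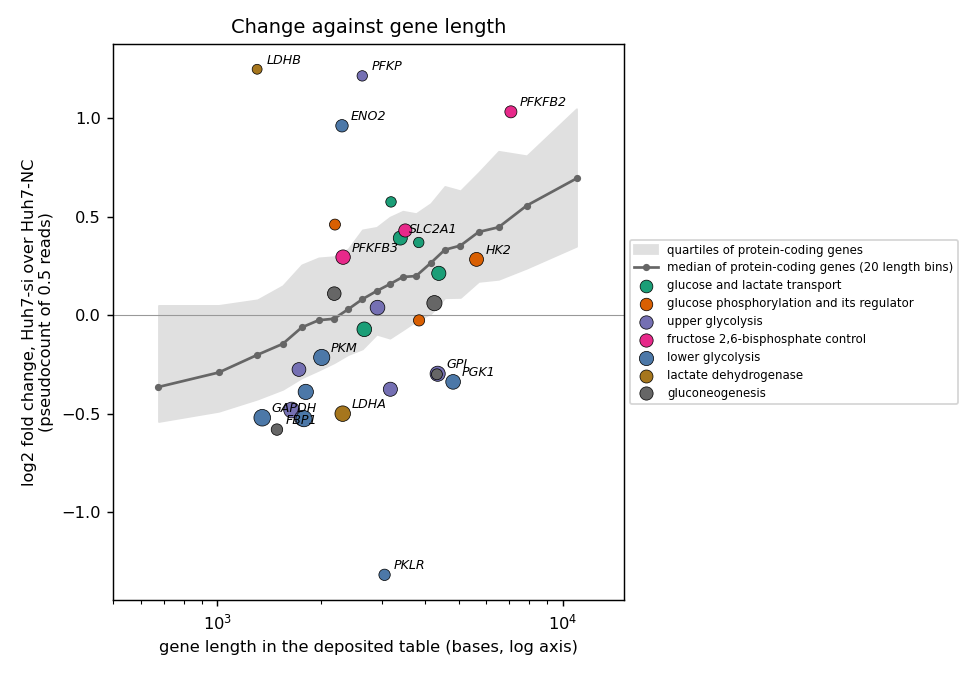
Log2 fold change against gene length (log axis) for the 31 genes with at least 10 reads, coloured by role and with larger points for more reads; the line and band give the median and quartiles of protein-coding genes in 20 length bins. PGK1 and GPI lie below genes of their length and ENO2 above, and the line runs from -0.36 to 0.69.

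Several of these genes have many processed pseudogenes, which could take up reads of the parent. The table holds 121 rows named or described as pseudogenes of 13 of the 32 genes, 71 of them of GAPDH. They held 71.0 reads (Huh7-NC) and 127 reads (Huh7-si) in total, on 28 rows. For GAPDH this was 0.0204% and 0.0336% of the reads of the gene itself. The highest share was that of SLC2A3 at 7.91% in Huh7-si, which is 2 reads. ENO1P1 went from 3.22 to 26.7 reads, and because these are fractional estimates its split from ENO1 is uncertain.

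The neighbouring pathways were read from lists of genes. Of 39 further genes of glycolysis, gluconeogenesis and pyruvate entry in the table, 31 had at least 10 reads, none was called and the median log2FC was 0.02. The mitochondrial pyruvate carrier genes MPC1 (903 and 497 reads) and MPC2 (4162 and 2904 reads) had log2FC values of -0.81 and -0.47. They were picked after their values were seen. Of the 8 pentose phosphate genes with at least 10 reads, none was called, 7 lay below 0 and the median was -0.30. Of 20 tricarboxylic acid cycle genes none was called, 19 lay below 0 and the median was -0.30. With like length taken off, these medians were -0.20, -0.26 and -0.21. The abundant glycolytic enzymes were therefore not alone in lying below 0, and no test of a difference between these lists was run.

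Of 24 regulators of glucose metabolism, 3 were called higher, beside 10.4% of all genes, and none lower, with a median log2FC of 0.31 (0.02 less genes of like length). TXNIP, which restrains glucose uptake and is a target of the glucose-sensing factors MondoA and ChREBP, rose from 380 to 906 reads, a log2FC of 1.30 (1.13 to 1.48). Its relative ARRDC4, under the same control, rose from 40 to 88 reads, with 1.19 (0.63 to 1.76). PPARGC1A, the coactivator of gluconeogenic transcription, rose from 46 to 136 reads, with 1.61 (1.12 to 2.13). PCK1, a textbook target of PPARGC1A, had 46 and 36 reads. HIF1A had 5453 and 7146 reads, a log2FC of 0.44, or 0.17 less genes of like length. MYC had 2921 and 3089 reads, a log2FC of 0.13, which turned to -0.07 less genes of like length. Both were picked after their values were seen.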

How the data were processed

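RNA-seq of 2 Huh7 libraries, 1 per group, was analyzed. The submitters' processing notes name TopHat2 2.0.12, Bowtie2 2.0.6 and GRCh37; the counting tool, annotation and strandedness are not given in the sources used here. GENCODE release 29 (GRCh38) holds 94.8% of the identifiers and supplied gene types alone, so the build behind the table is not settled. The authors deposited estimated counts per gene, partly fractional and not scaled, and TPM values. They also deposited their own ratio (fold) and log2 columns, and p-value columns, from a comparison of these libraries; these were not used. Group came from the sample titles.

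Estimated counts were rounded for tests. Medians used genes with at least 10 reads over both libraries and a pseudocount of 0.5 reads. Like-length medians used 20 bins of protein-coding genes. Shares within isozyme families, counted over the 32 genes only, were compared by Fisher's exact test, unadjusted. Genes given in full were the called genes, those with at least 100 reads and a fold of 1.5, and a set of rate-limiting enzymes with GAPDH; of other genes, listed ones past the fold with at least 100 reads. The members and lists were chosen with earlier results of these data known. Alternatives covered scaling by TMM (edgeR), by median of ratios (DESeq2), by upper quartile or by a total that omits the 100 most abundant genes, and also another test, pseudocount, filter or fold, TPM, and gene length. The tests were tried on simulated reads. Python 3.11.15, NumPy 2.4.6, pandas 2.3.3, SciPy 1.17.1, matplotlib 3.10.9, R 4.3.3, edgeR 4.0.16 and DESeq2 1.42.0 were used.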

Additional observations from a re-analysis of the deposited data

How the results depend on the processing

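No paired analysis was possible because each group has 1 library. Compared with total reads, TMM, median-of-ratios and upper-quartile scaling shift every log2 fold change by -0.22, -0.21 and -0.19, and the median of all genes from 0.21 to -0.02, 0.00 and 0.02; by TPM that median was 0.39. In place of 3 genes called higher, 1 was called with each of these 3 scalings, 0 with a pseudocount of 1 CPM and 0 with the exact test of edgeR and a coefficient of variation set to 0.4. In place of 1 gene called lower, 2 were at a fold of 1.5, 0 with a pseudocount of 1 CPM and 0 at a coefficient of variation of 0.4. The median of the members, -0.03, was -0.25 with TMM, -0.23 with median of ratios, -0.21 with the upper quartile, 0.17 by TPM and -0.19 less genes of like length.

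Direction turned for 9 genes. With TMM these were SLC16A1 (-0.013), PC (-0.16), PCK2 (-0.12) and PFKL (-0.19). With median of ratios PC (-0.15), PCK2 (-0.10) and PFKL (-0.17) turned, and with the upper quartile PC (-0.13), PCK2 (-0.078) and PFKL (-0.15). By TPM SLC16A3 (0.25) and HK1 (0.16) turned. Less genes of like length HK2 (-0.14), SLC16A1 (-0.12), PC (-0.20) and PFKL (-0.084) turned, and less genes of like length and level, an alternative added after seeing the data, HK2 (-0.12), SLC16A1 (-0.0028), SLC2A3 (-0.061), PC (-0.069) and PKM (0.024). The cause was not tested. With TMM, median of ratios and the upper quartile PFKFB2 was no longer past the fold (0.81, 0.83 and 0.85), LDHB no longer passed the exact test, and PFKP kept its call. By TPM PFKP was at 0.81. The share of the leading isozyme kept its direction and its side of the threshold with pseudogene reads added, and its direction by TPM.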

Other observations

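Glycogen genes, which store and release glucose, did not pass the thresholds. Of 19 examined, 17 had at least 10 reads in total, 11 lay above 0 and 6 below, and the median log2 fold change was 0.16, or -0.04 less genes of like length. STBD1, a glycogen-binding protein, had 944 and 1566 reads, GYS1, the muscle type glycogen synthase, 1426 and 1964, and PYGL, the liver glycogen phosphorylase, 2760 and 2386. These 3 were picked after their values were seen.

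Of 17 HIF target genes outside glycolysis, 1 was called higher, CA9, with 7 and 20.7 reads, beside 10.4% of all genes. The median log2 fold change was 0.02 and 9 of 17 lay above 0. VEGFA, the vascular growth factor, had 1206 and 2091 reads, BNIP3, a mitophagy receptor, 2858 and 2543, and NDRG1 1759 and 1573. These were picked after their values were seen, and differ in direction among themselves.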
